A study of Mus musculus with 11 samples.

Results

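The proteasome is the large protease that degrades proteins marked with ubiquitin in the cytosol and nucleus. Its 20S core is a barrel built of alpha subunits, which form the outer rings and the gate, and beta subunits, some of which carry the proteolytic sites inside the chamber. The 19S regulatory particle caps the core: its lid and base bind and remove ubiquitin, and its ring of ATPases unfolds the substrate and feeds it into the core. The genes described here were the protein-coding genes of the deposited count table named Psma, Psmb, Psmc or Psmd with a number, without Psmb8, Psmb9 and Psmb10, which encode the interferon-inducible immunoproteasome subunits. This gave 36 of 47131 genes, 16 of the 20S core (Psma and Psmb) and 20 of the 19S particle (Psmc and Psmd).

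Poly(A) RNA was sequenced from mouse colorectal organoids, epithelial cultures from colon tissue embedded in Matrigel; the donors were female C57BL/6J mice, 6 to 8 weeks old. NAP was given at 10 pM for 48 h in 6 libraries, and the other 5 were controls. The meaning of the abbreviation NAP is not stated in the labels, which describe the controls as untreated in one field and as given PBS vehicle in another. Batch label 1 is the same for all libraries. The labels call the libraries biological replicates but name no separate mice or cultures. The p-values therefore reflect the spread between libraries, part of which may be technical. No engineered allele is named in either group.

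Gene counts summed to between 16595733 and 20981155 in NAP libraries and between 16546263 and 21947414 in control libraries. Levels below are CPM, counts scaled to library size with the TMM method of edgeR, unless FPKM is named. Of the genes that mark intestinal epithelium, Epcam was at 2593 ± 715 CPM in NAP libraries and 2244 ± 865 CPM in controls and Cdx2 was at 185 ± 24.6 CPM in NAP libraries and 326 ± 113 CPM in controls (mean ± SD, n = 6 NAP and 5 control libraries, here and below). The summed level of 10 leukocyte markers was 10.6 to 24.2 CPM in NAP libraries and 6.73 to 15.6 CPM in controls, and that of 10 mesenchyme and endothelium markers was 8.15 to 53.3 CPM in NAP libraries and 2.61 to 33.6 CPM in controls. Ptprc, the pan-leukocyte gene, was at 0 to 0.189 CPM in NAP libraries and 0 to 0.788 CPM in controls. The control libraries differed among themselves in cell state: markers of absorptive colonocytes summed to 7699 to 11420 CPM in the NAP libraries, against 17710 and 16850 CPM in controls 2 and 5, 5524 CPM in control 3 and 3626 and 2604 CPM in controls 1 and 4. The markers were not alike: Aqp8 ran from 184 to 6953 CPM in controls, and Ceacam1 from 732 to 945 CPM. Of these 10 markers, 7 had negative log2 fold changes, NAP minus control, and 3, with Ceacam1 among them, positive ones. Intestinal stem cell markers summed to 404 to 731 CPM in NAP libraries. In controls they ran the other way from the colonocyte markers: 1560 and 1861 CPM in controls 1 and 4, 817 CPM in control 3, and 241.8 and 240.4 CPM in controls 2 and 5. Proliferation markers summed to 547 to 767 CPM in NAP libraries and 333 to 1286 CPM in controls. Log2 fold changes were negative for 9 of 9 tested stem cell markers and 11 of 12 proliferation markers, with 0 called. In bulk RNA, fewer cells of a type and less RNA per cell cannot be told apart.

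Promoter sequences are shown for 3 subunits because they span the observed range of change: Psmb5, the called gene of the core, Psmb6, the core gene with the lowest fold change, and Psmc6, the subunit gene with the highest. Each window runs from 250 bases before to 50 bases after the RefSeq start site, read in the direction of the gene, with coordinates of GRCm38.p6. Capitals mark matches to the antioxidant response element letters TGACNNNGC, the motif bound by the transcription factors NFE2L1 and NFE2L2. NFE2L1 is known to raise proteasome subunit transcription when proteasome activity is low. The Psmb5 window is chr14:54617946-54618245 on the minus strand, the Psmb6 window is chr11:70525107-70525406 on the plus strand, and the Psmc6 window is chr14:45329574-45329873 on the plus strand, where the match lies on the opposite strand.
Psmb5: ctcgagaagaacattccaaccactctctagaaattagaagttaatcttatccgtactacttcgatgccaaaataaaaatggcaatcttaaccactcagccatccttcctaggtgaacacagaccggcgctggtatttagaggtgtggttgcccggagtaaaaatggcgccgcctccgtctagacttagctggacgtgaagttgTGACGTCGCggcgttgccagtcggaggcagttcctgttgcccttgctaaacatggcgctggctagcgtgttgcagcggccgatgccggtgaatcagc
Psmb6: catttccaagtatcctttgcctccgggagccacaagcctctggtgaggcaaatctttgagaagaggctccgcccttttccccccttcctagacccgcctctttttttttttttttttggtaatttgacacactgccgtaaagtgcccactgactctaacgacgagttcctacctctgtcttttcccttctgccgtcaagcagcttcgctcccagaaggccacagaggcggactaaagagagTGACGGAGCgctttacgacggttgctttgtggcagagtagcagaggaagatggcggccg
Psmc6: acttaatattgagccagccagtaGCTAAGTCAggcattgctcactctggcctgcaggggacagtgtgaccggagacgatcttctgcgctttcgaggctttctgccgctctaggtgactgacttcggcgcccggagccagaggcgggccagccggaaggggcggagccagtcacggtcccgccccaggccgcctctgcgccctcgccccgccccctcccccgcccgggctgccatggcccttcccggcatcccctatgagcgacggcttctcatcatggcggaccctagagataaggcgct
Relative to the start site, the match began at −47 in Psmb5 (as TGACGTCGC), at −9 in Psmb6 (as TGACGGAGC) and at −227 in Psmc6 (as TGACTTAGC on the opposite strand).

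RefSeq windows were found for 29 of the 36 genes. On either strand, TGACNNNGC occurred in 5 of these 29 genes (17.2%: Psmb5, Psmb6, Psmc6, Psmd9 and Psmd12), against 14% of 27025 genes with windows of the same length. The ETS-type letters CCGGAA occurred in 15 of 29 (51.7%, 4 of 12 core genes and 11 of 17 regulatory particle genes), against 16.7% of all genes. The GC box letters GGGCGG occurred in 18 of 29 (62.1%), against 38.2%, and CCAAT occurred in 12 of 29 (41.4%), against 41.1%. An overlap of different motifs was present in 1 window, that of Psmd9, between TGACNNNGC and GGGCGG. The 5 genes with TGACNNNGC had a median log2 fold change, NAP minus control, of −0.49, and the 23 tested genes without it had −0.27; the 5 held both Psmb6, the lowest of the core, and Psmc6, the highest of all.

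NAP libraries had lower mean levels than controls for nearly every proteasome subunit gene, but only Psmb5 of the 20S core and Psmd3 of the 19S particle passed the test. Of the 34 subunit genes with enough counts to test, 32 had a negative log2 fold change: 13 of 14 in the core and 19 of 20 in the regulatory particle, against 55.3% of all 14840 genes tested. The median log2 fold change was −0.35 over the 34 genes, −0.38 in the core and −0.28 in the regulatory particle, beside −0.07 over all genes. At an adjusted p under 0.05 (edgeR quasi-likelihood test with Benjamini-Hochberg adjustment over all tested genes), 2 of 34 were called, both lower in NAP, where 2.12% of all genes were called, 1.07% lower and 1.05% higher. At an unadjusted p under 0.05, 15 of 34 were lower, 6 in the core and 9 in the regulatory particle, and 0 were higher, against 12.7% lower and 10.8% higher over all genes. Every NAP library lay below every control for 3 genes, Psmb5, Psmd3 and Psmd7, beside 2.57% of all genes, and every NAP library lay above every control for 0 genes, beside 2.14%.

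**Figure D1:**
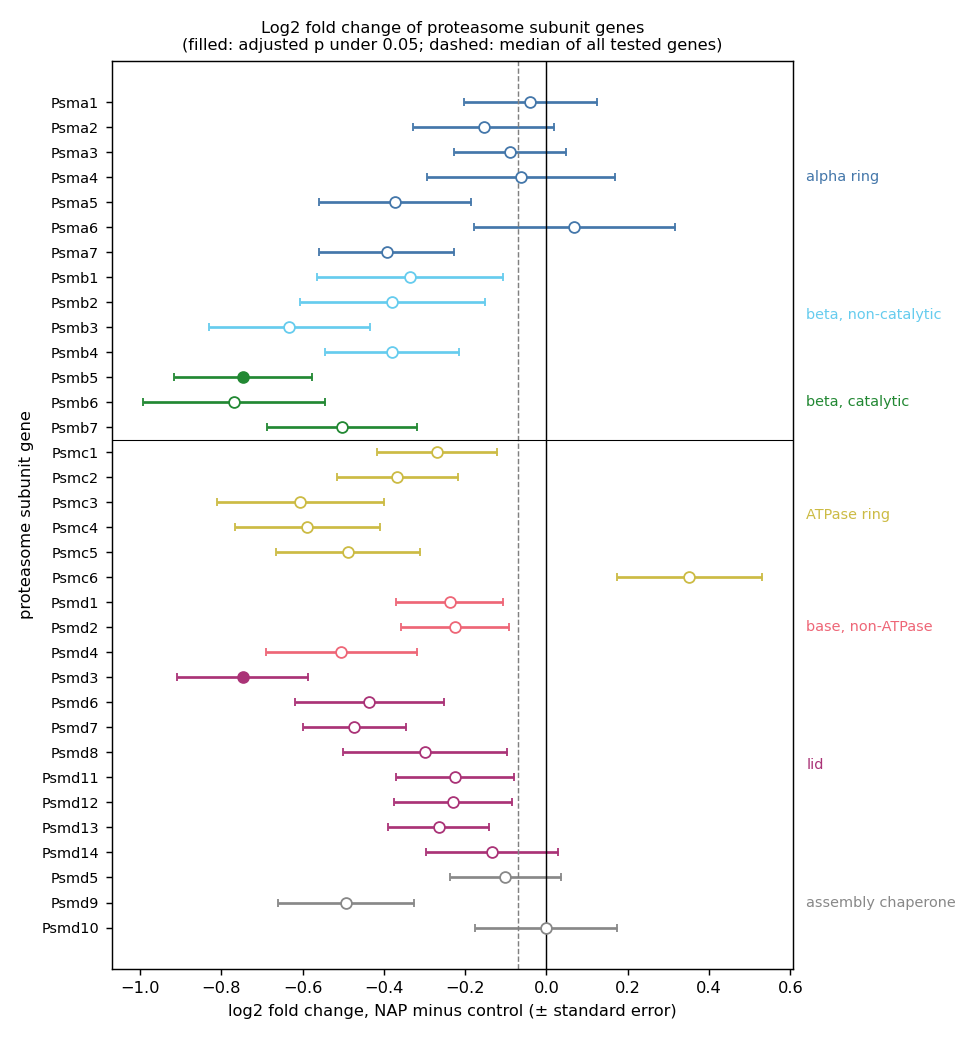
Log2 fold change (NAP minus control, horizontal axis, ± standard error) of the 34 tested subunit genes, grouped by their place in the complex; filled points had an adjusted p under 0.05 and the dashed line is the median of all tested genes. Only Psmb5 and Psmd3 are filled, and Psmc6 and Psma6 lie right of 0.

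Together the 36 genes took 0.254 to 0.325% of all counts in NAP libraries and 0.344 to 0.388% in controls, and these ranges did not overlap. The summed level of the 20 regulatory particle genes was 1551 to 1747 CPM in NAP libraries and 1755 to 2297 CPM in controls, again without overlap. The summed level of the core genes did overlap, at 1177 to 1472 CPM in NAP libraries and 1179 to 2061 CPM in controls. The ratio of the core sum to the regulatory particle sum was 0.719 to 0.882 in NAP libraries. Among controls it was 0.627 and 0.619 in controls 1 and 4 and 0.895, 0.858 and 0.898 in controls 2, 3 and 5, so controls 1 and 4 lay below the NAP range, controls 2 and 5 above it and control 3 within it.

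Of the 3 catalytic beta subunits, which hold the proteolytic sites, Psmb5 fell and Psmb6 and Psmb7 missed the threshold with log2 fold changes in the same direction. Psmb5 (identifier 19173, chr14:54851577-54855452 of GRCm39, minus strand) encodes the subunit with chymotrypsin-like activity, the main target of bortezomib. It had 65.01, 39.03, 54.7, 46.4, 35.9 and 41.3 CPM in NAP libraries 1 to 6, against 84.04, 89.8, 68.5, 70.2 and 82.1 CPM in controls 1 to 5. All 6 NAP libraries were below the lowest control, with NAP 1 closest to it. Psmb5 averaged 47.1 ± 10.98 CPM in NAP libraries and 78.9 ± 9.24 CPM in controls, 1.68-fold lower in NAP (log2 fold change −0.75, SE 0.17, adjusted p = 0.0457).

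Psmb6, which encodes the subunit with caspase-like activity, had 69.3, 41.1, 75.4, 53.7, 42.2 and 58.1 CPM in NAP libraries 1 to 6, against 73.4, 124, 85.4, 68.2 and 132 CPM in controls 1 to 5. The groups overlapped: NAP 1 and NAP 3 were above control 4, and controls 2 and 5 stood well above the other controls. Its log2 fold change of −0.77 (SE 0.22) was the lowest of the core but had an adjusted p of 0.0757. Psmb7, which encodes the subunit with trypsin-like activity, had 97.2, 61.3, 84.01, 76.8, 70.2 and 66.7 CPM in NAP libraries, against 81.5, 136, 98.9, 84.7 and 138 CPM in controls. NAP 1 and NAP 3 lay within the control range, and controls 2 and 5 were again highest (log2 fold change −0.50, SE 0.18, adjusted p = 0.128).

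**Figure D2:**
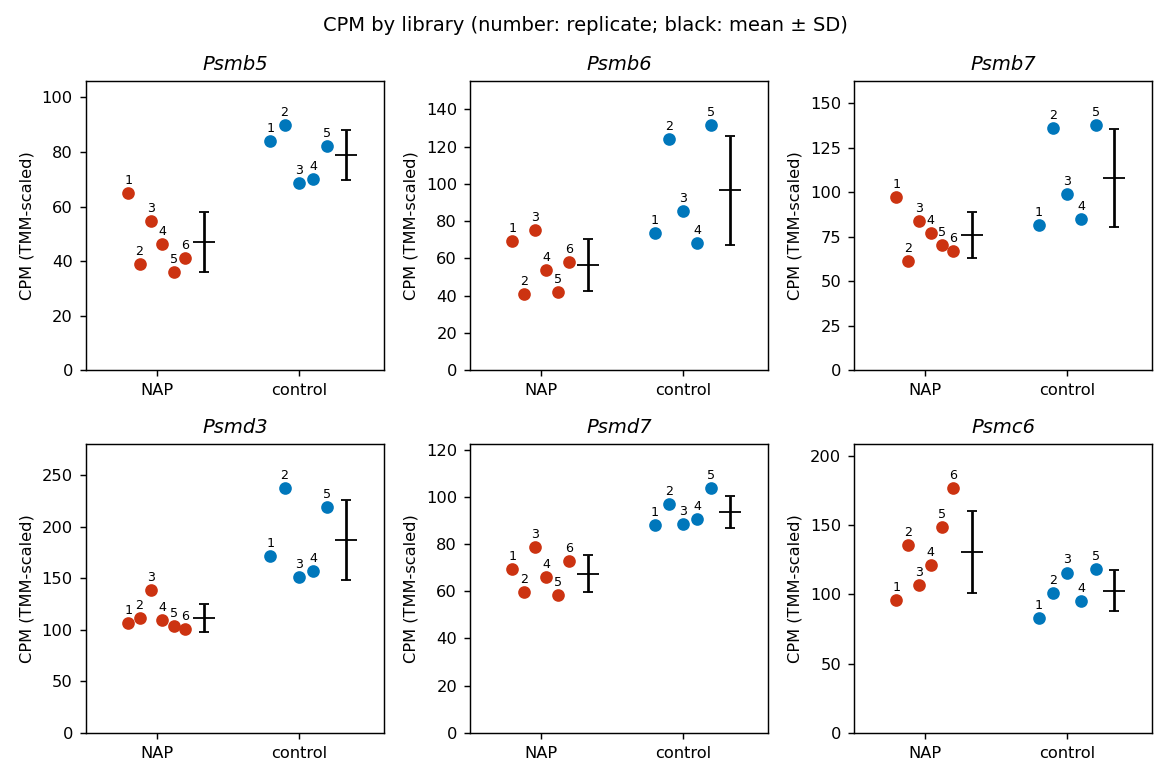
CPM (vertical axis, from 0) of 6 subunit genes in each NAP library and each control library, numbered by replicate, with the mean ± SD in black. NAP and control points do not overlap for Psmb5, Psmd3 and Psmd7, overlap for Psmb6 and Psmb7, and run the other way for Psmc6, where the ranges also overlap.

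The 4 beta subunits without proteolytic sites, Psmb1 to Psmb4, shape the beta rings, and none passed the test; their log2 fold changes were −0.34 to −0.63. Psmb3 had the smallest p of them, with 74.9, 54.8, 81.95, 58.6, 55.2 and 58.8 CPM in NAP libraries 1 to 6, against 74.6, 133, 80.96, 78.9 and 129 CPM in controls 1 to 5. The ranges overlapped through NAP 1 and NAP 3, while controls 2 and 5 stood apart above all other libraries (log2 fold change −0.63, SE 0.20, adjusted p = 0.0859). Psmb1 averaged 156 ± 25.6 CPM in NAP libraries and 197 ± 69.9 CPM in controls, with an adjusted p of 0.392. Psmb2 and Psmb4 had log2 fold changes of −0.38 each, with adjusted p of 0.334 and 0.184.

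The alpha ring, which gates entry to the chamber, was the class of core genes closest to the median of all genes, with a median log2 fold change of −0.09 over 7 genes and 0 called. Psma7 and Psma5 had the lowest values, −0.39 (adjusted p = 0.175) and −0.37 (adjusted p = 0.247). Psma1, Psma2, Psma3 and Psma4 lay between −0.15 and −0.04. Psma6 was the core gene with the highest log2 fold change, with 105, 128, 120.3, 134, 149 and 213 CPM in NAP libraries and 87.5, 170.4, 130.4, 90.9 and 196 CPM in controls. NAP 6 was the highest and control 1 the lowest of the 11 libraries, and the groups overlapped almost wholly (log2 fold change 0.07, SE 0.25, adjusted p = 0.891).

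The 2 remaining core genes were not tested. Psma8, the testis form of an alpha subunit, had 0 counts in every library. This allows up to 0.137 to 0.181 CPM on raw library totals, without TMM scaling (3 counts per library, for counting error only). Psmb11, the thymus form of the catalytic beta subunit, had 5 counts in total, 1 of them in NAP 3 and 4 in controls.

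Among the regulatory particle genes, Psmd3 fell. It encodes a scaffold subunit of the lid (identifier 22123, chr11:98573380-98586804 of GRCm39, plus strand). Its level was 106, 111, 138, 109.6, 103 and 101 CPM in NAP libraries 1 to 6, against 172, 238, 151, 157 and 219 CPM in controls 1 to 5. NAP 3 stood above the other 5 NAP libraries, which were close together, and all 6 were below the lowest control. Psmd3 averaged 112 ± 13.6 CPM in NAP libraries and 187 ± 38.8 CPM in controls, 1.68-fold lower in NAP (log2 fold change −0.75, SE 0.16, adjusted p = 0.0420).

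Both calls were close to the threshold, and both were lost in several fits that left out 1 library. Without NAP 2, 4 or 5, or control 1, 2 or 5, edgeR called 0 genes in the whole series. The loss in those fits was therefore not particular to these genes. Without NAP 6, 112 of 14597 genes were called, and without control 3, 158 of 15165. Without one NAP library at a time, the adjusted p of Psmb5 was 0.0330 without NAP 1, 0.127 without NAP 2, 0.0370 without NAP 3, 0.120 without NAP 4, 0.115 without NAP 5 and 0.0794 without NAP 6. Without one control at a time it was 0.0885 without control 1, 0.114 without control 2, 0.0621 without control 3, 0.0435 without control 4 and 0.0992 without control 5. The adjusted p of Psmd3 was 0.0394 without NAP 1, 0.113 without NAP 2, 0.0297 without NAP 3, 0.116 without NAP 4, 0.111 without NAP 5 and 0.0718 without NAP 6, and 0.0853 without control 1, 0.103 without control 2, 0.0493 without control 3, 0.0369 without control 4 and 0.0951 without control 5. In these 11 fits the log2 fold change was between −0.86 and −0.67 for Psmb5 and between −0.82 and −0.63 for Psmd3. Every NAP library lay below every control for both genes, so leaving out 1 library could hardly change the sign.

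The other lid genes had log2 fold changes of −0.13 to −0.47 and none passed the test. Psmd7, the lid partner of the deubiquitinase Psmd14, had 69.5, 59.7, 78.6, 66.01, 58.4 and 72.7 CPM in NAP libraries 1 to 6, against 88.1, 96.96, 88.7, 90.7 and 104 CPM in controls 1 to 5. The groups did not overlap and the controls were close together, yet the adjusted p was 0.0613 (log2 fold change −0.47, SE 0.13). Psmd14 itself, which removes ubiquitin chains from substrates, averaged 74.1 ± 16.7 CPM in NAP libraries and 81.3 ± 9.16 CPM in controls (log2 fold change −0.13, adjusted p = 0.646). Psmd6 (−0.44), Psmd8 (−0.30), Psmd13 (−0.27), Psmd12 (−0.23) and Psmd11 (−0.22) had adjusted p of 0.175 to 0.39.

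Of the 6 ATPases, Psmc1 to Psmc6, which unfold substrates, 5 had negative log2 fold changes and none passed the test. Psmc4 had 75.7, 59.3, 85.3, 58.2, 53.97 and 69.3 CPM in NAP libraries 1 to 6, against 95.5, 116, 68.9, 98.8 and 124 CPM in controls 1 to 5 (log2 fold change −0.59, SE 0.18, adjusted p = 0.0802). Psmc3 had 82.2, 47.8, 100.2, 57.02, 49.2 and 66.6 CPM in NAP libraries, against 108, 102, 78.1, 119 and 104 CPM in controls (log2 fold change −0.61, SE 0.21, adjusted p = 0.106). For both, the lowest control, control 3, lay within the NAP range, and NAP 1 and NAP 3 were the highest NAP libraries.

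Psmc5 had 91.7, 57.9, 89.97, 59.5, 55.6 and 65.3 CPM in NAP libraries, against 99.2, 109.8, 78.1, 90.9 and 113 CPM in controls, where controls 3 and 4 lay within the NAP range (log2 fold change −0.49, SE 0.18, adjusted p = 0.123). Psmc2 and Psmc1 had log2 fold changes of −0.37 and −0.27, with adjusted p of 0.161 and 0.288. Psmc6 ran the other way, with 95.7, 136, 107, 121, 148 and 177 CPM in NAP libraries 1 to 6 and 82.6, 101, 116, 95.1 and 118 CPM in controls 1 to 5. NAP 2, NAP 4, NAP 5 and NAP 6 were above every control, while NAP 1 and NAP 3 were inside the control range, so the groups overlapped (log2 fold change 0.35, SE 0.18, adjusted p = 0.255).

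The base subunits without ATPase activity are the scaffolds Psmd1 and Psmd2 and the ubiquitin receptor Psmd4. None passed the test: the log2 fold changes were −0.24 for Psmd1, −0.22 for Psmd2 and −0.50 for Psmd4, with adjusted p of 0.291, 0.324 and 0.128. Psmd2 averaged 207 ± 12.4 CPM in NAP libraries and 242 ± 25.7 CPM in controls. CPM is not scaled to gene length, which is 3417 bases for Psmd2. In FPKM it averaged 58.8 in NAP libraries and 68.3 in controls, below the core medians of 83.5 and 93.2. Psmd5, Psmd9 and Psmd10 carry Psmd names but encode chaperones that help assemble the base and leave the finished particle. Psmd9 had 18.9, 14.4, 18.97, 13.98, 13.4 and 12.3 CPM in NAP libraries, against 24.02, 22.6, 18.6, 21.7 and 20.9 CPM in controls. NAP 1 and NAP 3 reached into the control range (log2 fold change −0.49, SE 0.17, adjusted p = 0.106). Psmd5 had a log2 fold change of −0.10 (adjusted p = 0.682), and Psmd10 averaged 18.1 ± 3.81 CPM in NAP libraries and 18.1 ± 1.64 CPM in controls, with a log2 fold change of −0.00 (adjusted p = 0.997).

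Per gene length, core transcripts were more abundant than those of the regulatory particle. In the deposited FPKM values, the gene means in the core ran from 20.6 to 146 with a median of 83.5 in NAP libraries, and from 21.8 to 183 with a median of 93.2 in controls. In the regulatory particle they ran from 5.72 to 78.4 with a median of 42.9 in NAP libraries, and from 8.02 to 96.1 with a median of 52.3 in controls. Psmb1 was the highest and Psma3 the lowest of the core in both groups, and Psmd8 was the highest and Psmd9 the lowest of the regulatory particle. The pseudogene Gm13835, a copy of Psma3, held counts equal to 64.5% of those of Psma3, so how the reads of that pair were divided is uncertain. Copies of Psma5 held 14.5% of its count, and copies of Psmb5 held 1.80%; Psmd10 overlaps Atg4a on the opposite strand over 2867 bases, and with the strand setting not given those counts are uncertain.

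**Figure D3:**
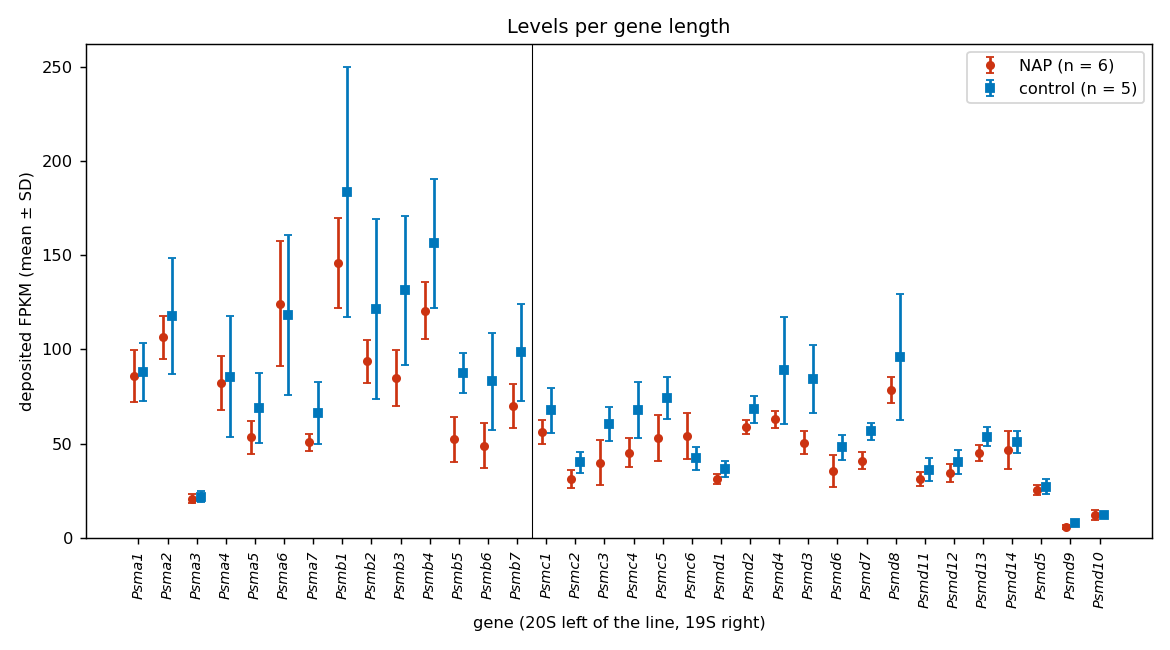
Deposited FPKM (vertical axis, mean ± SD) of each tested subunit gene in 6 NAP libraries and 5 control libraries, with core genes left of the line. Core means reach 146 in NAP libraries and 183 in controls, both for Psmb1, and the control error bars of Psmb1 and Psmb2 are the widest.

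The spread among controls was larger for core genes than for regulatory particle genes. The median coefficient of variation of CPM was 16.4% in NAP libraries and 26% in controls for core genes, and 12.9% in NAP libraries and 14.4% in controls for regulatory particle genes. Controls 2 and 5 were the 2 highest of all 11 libraries in 23 of the 34 genes, 11 of 14 in the core and 12 of 20 in the regulatory particle. Neither this count nor the spread was computed over all tested genes, so neither is shown to be particular to subunit genes. The mean deviation of the core genes from their averages over libraries, in log2 CPM, was −0.21, −0.24, −0.09, −0.15, −0.18 and 0.01 in NAP libraries 1 to 6, and −0.20, 0.53, 0.13, −0.18 and 0.57 in controls 1 to 5. Controls 1 and 4 thus sat among the NAP libraries. For the regulatory particle it was −0.07, −0.23, −0.01, −0.21, −0.25 and −0.10 in NAP libraries, and 0.09, 0.30, 0.01, 0.13 and 0.34 in controls, with control 3 just above the highest NAP library.

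**Figure D4:**
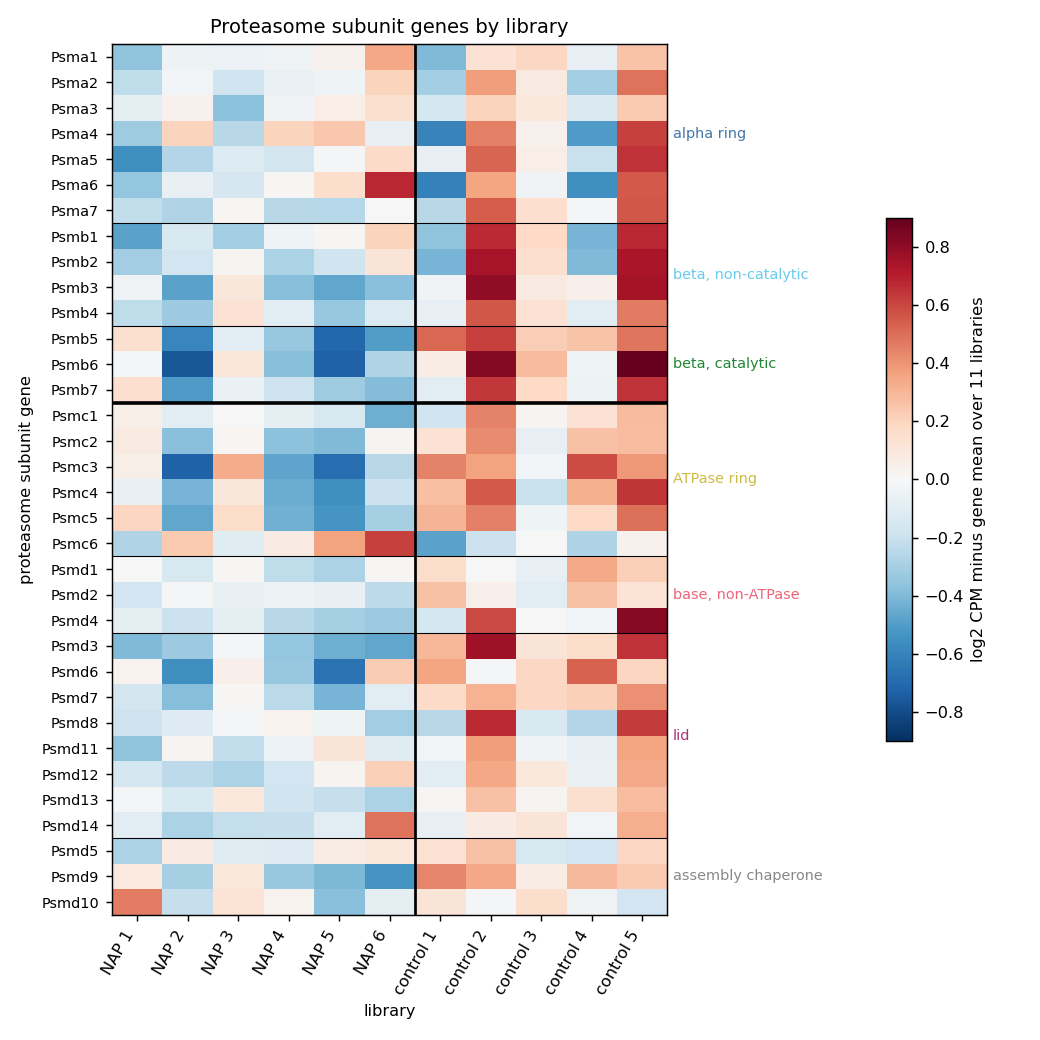
Log2 CPM of each of the 34 tested subunit genes (rows, by place in the complex) minus its mean over 11 libraries (columns, NAP left and control right), from blue (below the mean) to red (above it). Controls 2 and 5 are red in most core rows, controls 1 and 4 are blue in most alpha rows, and the Psmb5 and Psmd3 rows are red in all 5 controls.

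Because controls 2 and 5 also had the highest colonocyte marker sums, the comparison was repeated without them. The median log2 fold change of the core was then −0.00, with 7 of 14 genes negative, and that of the regulatory particle was −0.19, with 17 of 20 negative. EdgeR then called 0 subunit genes, and 824 of 15501 genes in all. At an unadjusted p under 0.05, 1 of 14 core and 5 of 20 regulatory particle genes were lower and 0 were higher. Over all genes, 4837 of 15501 passed in either direction, a count not split by direction. Psmb5 was at −0.63 (adjusted p = 0.0666), Psmd3 at −0.49 (adjusted p = 0.0605) and Psmb6 at −0.39 (adjusted p = 0.212). Without controls 1 and 4 instead, 6 core genes (Psma7, Psmb2, Psmb3, Psmb5, Psmb6 and Psmb7) and 2 regulatory particle genes (Psmd3 and Psmd4) were called lower. In that fit 1315 of 15873 genes were called in all, in either direction, 448 of them higher. The core and regulatory particle medians were −0.55 and −0.34. Controls 2 and 5 were already the highest and controls 1 and 4 among the lowest of the controls for most core genes, so these values describe the spread of the controls and are no further test of NAP.

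The subunit genes differed in transcript GC content in step with their fold changes. Psmb5 had the highest mean transcript GC content of the 34 genes, 57.1%, followed by Psmd3 at 56.2% and Psmd7 at 55.6%, and Psmc6 had 42.1%. Across the 34 genes, which share the same 11 libraries, GC content and log2 fold change had a Spearman correlation of −0.76, −0.68 over the 14 core genes and −0.80 over the 20 regulatory particle genes, beside −0.44 over 12472 tested genes with a GC value. The library measure moved with the groups as well: ranked across genes, GC content and the deviation of a library from the gene means had a correlation of −0.539 to 0.109 in NAP libraries and 0.015 to 0.36 in controls. With a smooth GC trend removed from each library, edgeR called 0 subunit genes, and 44 of 12472 genes in all. At an unadjusted p under 0.05, 9 of 14 core and 11 of 20 regulatory particle genes were lower and 0 were higher. Over all genes, 2427 of 12472 passed in either direction, a count not split by direction. Psmb5 was at −0.46 (adjusted p = 0.0850) and Psmd3 at −0.47 (adjusted p = 0.101). The medians were −0.42 in the core, −0.32 in the regulatory particle and −0.06 over all genes. The alpha ring median was then −0.36, against −0.09 without the correction, and Psmc6 was at 0.03.

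**Figure D5:**
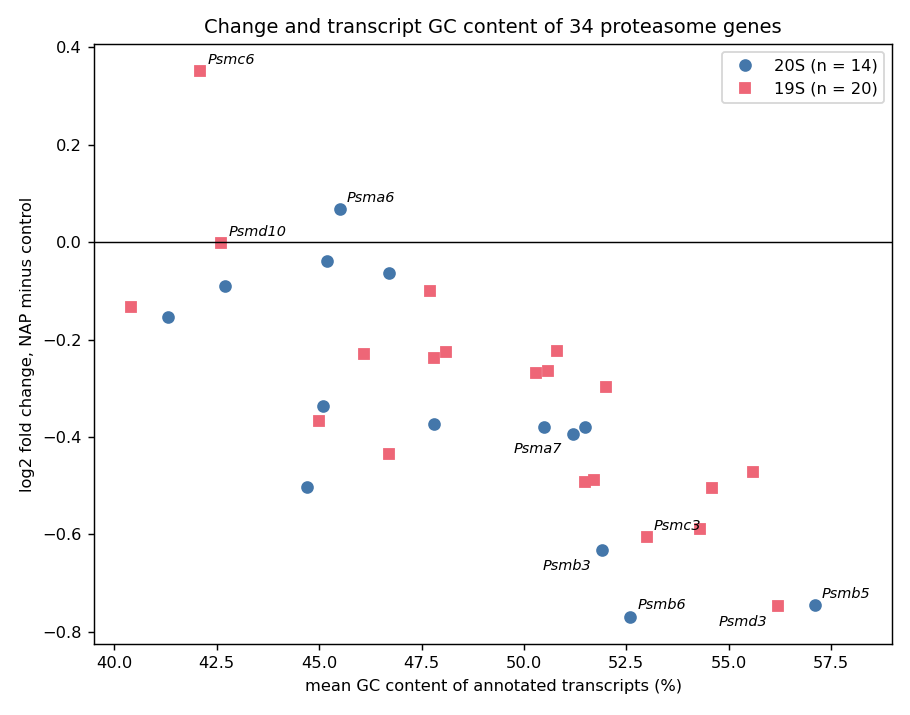
Log2 fold change (NAP minus control, vertical axis) against mean GC content of annotated transcripts (percent, horizontal axis) for 34 subunit genes, with core genes as circles and regulatory particle genes as squares. Genes of higher GC content lie lower, with Psmb5 and Psmd3 at the lower right and Psmc6 at the upper left.

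Gene length was a further property in which the core stood apart. The median gene length in the deposited table was 1080 bases for core genes and 1617.5 for regulatory particle genes, beside 3466 for all tested genes. With a length trend removed from each library, the core median was −0.09 and the regulatory particle median was −0.20, Psmb5 had an adjusted p of 0.116, and Psmd3 remained past the threshold at 0.0426. The share of counts from the mitochondrial chromosome was 5.18 to 8.08% in NAP libraries and 2.74 to 4.78% in controls. Leaving out that chromosome before scaling kept the same 2 calls.

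The immunoproteasome subunits replace the catalytic beta subunits under interferon, and their genes did not pass the test. Psmb10 had 32.1, 18.4, 32.6, 23.1, 14.9 and 30.4 CPM in NAP libraries 1 to 6, against 34.5, 94.4, 47.1, 26.7 and 89.1 CPM in controls 1 to 5. Controls 2 and 5 were far above all other libraries, and the groups overlapped through control 4 (log2 fold change −1.21, SE 0.34, adjusted p = 0.0672). Psmb8 averaged 0.754 ± 0.388 CPM in NAP libraries and 1.84 ± 1.13 CPM in controls (adjusted p = 0.146) and Psmb9 3.09 ± 1.35 CPM in NAP libraries and 3.28 ± 2.21 CPM in controls (adjusted p = 0.940). Of 18 interferon response genes, 15 were tested and none was called, with a median log2 fold change of −0.11. The interferon regulator Irf1 was at −0.73 (adjusted p = 0.214) and the peptide transporter gene Tap2 at −0.45 (adjusted p = 0.353).

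Among proteins that join the 19S particle without a Psmc or Psmd name, Adrm1, a ubiquitin receptor of the base, fell. It had 80.7, 59.7, 80.4, 55.1, 52.6 and 46.5 CPM in NAP libraries 1 to 6, against 106, 139, 80.3, 101 and 136 CPM in controls 1 to 5. NAP 1 and NAP 3 were just above control 3 and the other 4 NAP libraries were below every control (1.79-fold lower in NAP, log2 fold change −0.84, SE 0.20, adjusted p = 0.0476). The call was lost without NAP 2 (adjusted p = 0.128), NAP 4 (adjusted p = 0.125), NAP 5 (adjusted p = 0.120), NAP 6 (adjusted p = 0.0795), control 1 (adjusted p = 0.0853), control 2 (adjusted p = 0.115) or control 5 (adjusted p = 0.104). In each of these fits except that without NAP 6, 0 genes were called in the whole series. With the GC trend removed Adrm1 was at −0.54 (adjusted p = 0.0850), and without controls 2 and 5 it was at −0.59 (adjusted p = 0.0810). The other 5 of that list, Sem1, Uchl5, Usp14, Ube3c and Ecpas, had log2 fold changes of −0.43 to 0.24 and none was called.

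The proteins that activate, inhibit or assemble the proteasome gave no call. The interferon-inducible activator Psme1 averaged 50.001 ± 13.7 CPM in NAP libraries and 88.1 ± 31.4 CPM in controls (log2 fold change −0.82, SE 0.25, adjusted p = 0.0851), and the other 4 of 5 in its list, Psme2, Psme3, Psme4 and the inhibitor Psmf1, lay between −0.27 and 0.01, with Psme2 lowest (adjusted p = 0.543). All 5 assembly chaperone genes of the core, Pomp and Psmg1 to Psmg4, had negative log2 fold changes, with a median of −0.37. Psmg4 was at −0.51 (adjusted p = 0.264). Psmg3 had the smallest p of them, at 9.85 ± 2.25 CPM in NAP libraries and 17.6 ± 6.23 CPM in controls (log2 fold change −0.83, adjusted p = 0.0802).

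The pathway known to raise subunit transcription was measured too. Ngly1, the glycanase that deglycosylates NFE2L1 on its way to activation, rose. It had 78.02, 76.5, 79.1, 80.8, 77.1 and 87.5 CPM in NAP libraries 1 to 6, against 53.9, 52.04, 65.5, 46.1 and 49.6 CPM in controls 1 to 5. All 6 NAP libraries were above every control (1.49-fold higher in NAP, log2 fold change 0.58, SE 0.13, adjusted p = 0.0420). The call was lost without NAP 2 (adjusted p = 0.111), NAP 4 (adjusted p = 0.116), NAP 5 (adjusted p = 0.106), NAP 6 (adjusted p = 0.0595), control 1 (adjusted p = 0.0853), control 2 (adjusted p = 0.0980), control 4 (adjusted p = 0.0544) or control 5 (adjusted p = 0.0927). In each of these fits except those without NAP 6 or control 4, 0 genes were called in the whole series. With the GC trend removed Ngly1 was at 0.33 (adjusted p = 0.191). The other 5 genes of that list did not pass: Nfe2l1 averaged 161 ± 26.2 CPM in NAP libraries and 170.1 ± 21.6 CPM in controls (log2 fold change −0.08, adjusted p = 0.792), Nfe2l2 averaged 354 ± 82.6 CPM in NAP libraries and 276 ± 84.8 CPM in controls (0.36, adjusted p = 0.383), and the protease Ddi2, which cleaves NFE2L1, averaged 10.3 ± 3.55 CPM in NAP libraries and 12.7 ± 6.89 CPM in controls (−0.30, adjusted p = 0.637).

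The COP9 signalosome and the core of the translation initiation factor eIF3 share the architecture of the 19S lid. All listed genes of both complexes are set beside it, including eIF3 genes outside that core, Eif3g among them. In COP9, 8 of 10 genes had negative log2 fold changes, with a median of −0.16 and 0 called; Cops6, the counterpart of Psmd7, was at −0.65 (adjusted p = 0.0747), and Cops7a was at −0.39 (adjusted p = 0.119). In eIF3, 10 of 13 were negative, with a median of −0.28, and Eif3g was called, at 49.8 ± 14.5 CPM in NAP libraries and 93.2 ± 7.54 CPM in controls (log2 fold change −0.90, SE 0.19, adjusted p = 0.0417). That call was lost without NAP 2 (adjusted p = 0.111), NAP 4 (adjusted p = 0.116), NAP 5 (adjusted p = 0.106), NAP 6 (adjusted p = 0.0646), control 1 (adjusted p = 0.0853), control 2 (adjusted p = 0.0994), control 3 (adjusted p = 0.0578) or control 5 (adjusted p = 0.0898). In each of these fits except those without NAP 6 or control 3, 0 genes were called in the whole series. With the GC trend removed Eif3g was at −0.62 (adjusted p = 0.0612), and without controls 2 and 5 it was at −0.79 (adjusted p = 0.0527). The lid itself had 8 of 8 negative with the same median to 2 decimals, −0.28. In the CCT chaperonin, the folding machine for actin and tubulin, 7 of 8 were negative, with a median of −0.18 and 0 called. Every NAP library lay below every control in Cct7 and Cct5, and also in Eif3g and Eif3l of eIF3, beside 2.57% of all genes tested. Cct7 and Cct5 had log2 fold changes of −0.49 each and adjusted p of 0.0809 and 0.0873.

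Genes that act upstream of the proteasome gave no call. Of 9 genes for the VCP segregase and its cofactors, which extract ubiquitylated proteins, 6 were negative; Ubxn1 averaged 71.3 ± 6.35 CPM in NAP libraries and 114 ± 35.8 CPM in controls (adjusted p = 0.0726) and Ubxn4 averaged 104 ± 17.2 CPM in NAP libraries and 74.5 ± 6.35 CPM in controls (adjusted p = 0.0821). Of 10 shuttle and import factors, 3 were negative, with a median of 0.04; Midn, which brings substrates to the proteasome without ubiquitin, was at 0.46 (adjusted p = 0.216). Of 6 ubiquitin and E1 genes, 5 were negative, and Ubb was at −0.31 (adjusted p = 0.364). Of 10 heat shock and proteotoxic stress genes, 6 were negative, with a median of −0.05, and Hspa1b averaged 30.98 ± 13.8 CPM in NAP libraries and 85.9 ± 80.8 CPM in controls (log2 fold change −1.47, adjusted p = 0.0932); without control 1 it was at −0.68 (adjusted p = 0.237). Hmox1, the stress-inducible heme oxygenase, was at 0.80 (adjusted p = 0.144).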

How the data were processed

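RNA of 6 NAP and 5 control libraries was measured, grouped and numbered by their titles. The authors deposited whole-number counts per gene and, for the same genes, FPKM values, which relate counts to gene length. Per the submitters' processing notes, Trimmomatic 0.39, HISAT2 2.2.1, featureCounts of Subread 2.0.8 and the build GRCm39 were used, with strand setting, annotation release and handling of multiply mapping reads not given in the sources used here.

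From the counts, edgeR 4.0.16 (R 4.3.3) kept 14840 genes with filterByExpr, applied TMM scaling and tested NAP against control by robust quasi-likelihood without covariates. P-values were adjusted by Benjamini-Hochberg and called under 0.05. Logged CPM used a prior count of 2. The SE was obtained by dividing the log2 fold change by the root of F.

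All subunit genes are accounted for. Given library by library are the catalytic genes, every called gene, the 4 (core) and 6 (regulatory particle) smallest p and the extremes of fold change; of other lists, called genes or the 2 smallest p, 2 of which are not reported here. The members and lists were chosen with earlier results of these data known. Transcript GC content came from GENCODE M21 through gene identifiers (84% of tested genes, all 34 tested subunit genes), with no coordinates; promoter windows came from RefSeq.

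Alternatives were other scalings and filters, DESeq2 1.42.0, limma 3.58.1 with voom weights, limma on FPKM after log2 with 1 or 0.1 added, a block for the replicate number, length or GC trends removed (lowess per library, span 0.3), the mitochondrial chromosome left out, pairs of controls left out and single libraries left out in turn. Tests on simulated data preceded the fits.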

Additional observations from a re-analysis of the deposited data

Results flagged for a closer look

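Within a group, 4 of 130 tests, 1 per group for each gene or gene class, found a library far from the others (its gap to the nearest library divided by the group's range was above the 95% critical value of Dixon's test); chance alone gives about 1 in 20. Psmd3 stood at 138 CPM in NAP 3, against 101 to 111 CPM in the other NAP libraries (ratio 0.722). Psmd14 stood at 107 CPM in NAP 6, against 62.7 to 71.3 CPM in the others (ratio 0.807). Psmg4 stood at 7.75 CPM in NAP 3, against 4.13 to 5.33 CPM (ratio 0.670). Hspa1b, an inducible heat shock protein, stood at 229.7 CPM in control 1, against 39.1 to 57.6 CPM in the other controls (ratio 0.903).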

How the results depend on the processing

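Over the 34 named genes, 498 of 510 values under other settings and 367 of 374 with 1 library left out kept their sign. Many of these genes were named for a small p or an extreme fold change in the same data, which favours a kept sign. Against 315 genes called in all, library totals in place of TMM gave 41, no filter gave 89 and DESeq2 gave 1721; removing the GC trend gave 44, of which 36 were higher, against 156 of 315. Called core and regulatory particle genes, 1 each, were 0 and 1 with upper-quartile scaling or the length trend removed, 0 and 0 with library totals, no filter or the GC trend removed, and 3 and 4 with DESeq2 (Psmb3, Psmb5, Psmb6, Psmc4, Psmd3, Psmd7 and Psmd9). Without controls 2 and 5 the counts were 824 of 15501 genes in all, 0 and 0. Without controls 1 and 4 they were 1315 of 15873, 6 and 2. The core median moved to −0.085 with the length trend removed and to −0.00045 without controls 2 and 5. Over the 26 alternatives, 7 to 14 of 14 core genes and 16 to 19 of 20 regulatory particle genes were negative. The cause was not tested.

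With 1 library left out, 0 to 814 genes were called in all, 0 to 1 in the core and 0 to 3 in the regulatory particle (3 without NAP 3: Psmc3, Psmd3 and Psmd7), and the core and regulatory particle medians were −0.45 to −0.22 and −0.36 to −0.22. Genes not called with all libraries passed without NAP 1 (Cops6, adjusted p = 0.0403, and Irf1, 0.0467), NAP 3 (Psmc3, 0.0427, and Psmd7, 0.0430) or control 4 (Psmb10, 0.0411, and Ubxn1, 0.0369). Counts of 0 in all came without NAP 2, 4 or 5 or control 1, 2 or 5, where edgeR had 2614 to 3311 genes at an unadjusted p under 0.05, against 3495 with all libraries. The replicate numbers gave no clear pairing: the correlations of same-numbered libraries' deviations were 0.42, 0.34, −0.07, −0.30 and 0.30. Of 5 NAP libraries, 2, NAP 1 and NAP 5, correlated best with their own number. Control 5 was the best match of NAP 2 and NAP 4 as well. These values cannot show whether same-numbered libraries shared an origin. With a replicate block, edgeR called 0 genes, 0 of the core and 0 of the regulatory particle, with 2903 genes at an unadjusted p under 0.05.

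Sign changes concerned 3 genes that were not called. Psmb9 stood at 0.19 with voom, 0.032 and 0.10 with FPKM + 1 and FPKM + 0.1, 0.18 with the block, 0.33 without the length trend, 0.14 without the GC trend and 0.84 without controls 2 and 5, and at 0.087, 0.039, 0.19 and 0.24 without NAP 3, NAP 6, control 2 and control 5, where its lowest value with 1 library left out was −0.33, without control 4. Psma6 stood at −0.022 with the block, −0.17 without the GC trend and −0.20 without controls 1 and 4, and at −0.078, −0.049 and −0.041 without NAP 6, control 1 and control 4, where its highest value with 1 library left out was 0.25, without control 5. Psme2 stood at 0.055 without the length trend and 0.17 without controls 2 and 5.

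The lowest level of a tested subunit gene in a library was 12.3 CPM. What limited the number of calls was not tested, and the labels tie no library to an animal or culture.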
